A study of Homo sapiens with 6 samples.

Results

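The NR4A receptors and the Kruppel-like factors are transcription factors that many cells switch on quickly when signals reach them. The genes described here are 10 of the 20745 genes in the table: NR4A1, NR4A2 and NR4A3, and the Kruppel-like factors KLF2, KLF4, KLF5, KLF6, KLF10, KLF13 and KLF15. They were found by their symbol, and each had 1 row. The genes were selected on family membership with the authors' fold changes and p-values for levamisole against vehicle in view. Those values are the authors' own comparison and are not used or printed here. What remains in the table is the base mean, the authors' mean over all libraries of their fit of gene counts divided by size factors. The results therefore describe levels, and no effect of levamisole was measured here.

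NR4A1, NR4A2 and NR4A3 are orphan nuclear receptors, for which no natural ligand is firmly established. Their activity depends largely on how much of them a cell makes. Kruppel-like factors bind GC-rich and CACCC-type DNA through zinc fingers at their carboxyl end, and different members activate or repress transcription. In podocytes, the cells that wrap the capillaries of the kidney filter, KLF15 is known as a glucocorticoid-induced differentiation factor, and KLF6 and KLF4 have been linked to protection from injury.

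The cells were AB 8/13, a human podocyte line that carries a conditional immortalizing gene, so that it divides at the permissive temperature and differentiates at the restrictive one. The labels give 3 vehicle cultures and 3 cultures treated with 1 µM levamisole, an anthelminthic drug also given to spare steroids in nephrotic syndrome, all for 24 h. The labels place both groups in medium without serum, whereas the methods of the study place the vehicle cultures in complete medium. The RNA was sequenced by an adapted CEL-seq protocol, which reads mostly the 3′ end of transcripts.

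The base means held more different low values than whole reads in 6 libraries could give under the size settings tried. A base mean under 0.5 was listed for 1714 genes, and all 1714 values were different when compared to 9 decimals. Whole reads can be placed in 6 libraries of equal size in only 27 ways that give such a mean. For 6 libraries spread over a 10-fold range of size the number of ways is 99. Each way gives 1 value, and different ways can give the same one. The fit may thus have held further libraries, of conditions not known here. This could not be settled, because wider ranges of size and normalization factors that differ by gene were not tried. Each level below is the authors' mean over all libraries of their fit, with no SD, no n and no depth per library. Whether 2 levels differ beyond the spread of cultures could not be tested. The podocyte label was only partly borne out by the marker genes looked up. VIM, ACTN4 and CD2AP had base means of 19062, 14321 and 929, but cells of many kinds express these. WT1 had 6.21, SYNPO 22.8 and PODXL 15.3, and NPHS1 and LMX1B had no row in the table used here. Of 10 markers of other kidney cells, ACTA2 (1021) and AQP1 (243) were above a base mean of 5, 6 were below it and 2 had no row. Of all genes with a row, 64.3% had a base mean of at least 5.

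The promoters of the members with the highest and the lowest level and of NR4A3 are shown first, because they differ in the short motifs they hold. The sequences are from RefSeq on GRCh38.p14, are written 5′ to 3′ on the strand of the gene, and stop at the gene start of GENCODE 44 where that lies upstream of the RefSeq start. In KLF6 and KLF15 the capitals mark the GC box GGGCGG, the kind of site that SP and Kruppel-like factors bind. In NR4A3 they mark TGACG, the core of the cyclic AMP response element that CREB binds, or its reverse complement CGTCA. The KLF15 run also holds 2 such matches, which are left in small letters. The KLF6 run is chr10:3785282-3785459 (minus strand), the KLF15 run chr3:126357409-126357658 (minus strand) and the NR4A3 run chr9:99821635-99821854 (plus strand).
KLF6: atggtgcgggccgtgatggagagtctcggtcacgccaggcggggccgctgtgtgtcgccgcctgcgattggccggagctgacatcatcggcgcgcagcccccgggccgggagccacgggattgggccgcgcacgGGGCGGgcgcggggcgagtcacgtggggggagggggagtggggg
KLF15: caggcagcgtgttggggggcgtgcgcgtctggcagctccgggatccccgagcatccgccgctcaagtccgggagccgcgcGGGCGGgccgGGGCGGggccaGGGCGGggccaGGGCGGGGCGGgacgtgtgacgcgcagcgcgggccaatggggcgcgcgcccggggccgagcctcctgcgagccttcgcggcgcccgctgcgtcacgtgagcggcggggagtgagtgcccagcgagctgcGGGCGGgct
NR4A3: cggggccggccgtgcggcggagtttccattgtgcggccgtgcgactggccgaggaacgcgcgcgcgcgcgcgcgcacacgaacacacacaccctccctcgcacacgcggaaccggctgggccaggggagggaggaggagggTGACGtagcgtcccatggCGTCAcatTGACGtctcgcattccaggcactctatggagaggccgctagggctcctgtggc

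The table of promoters held 8 of the 10 members, with 10 start sites, and did not match NR4A2 and KLF10. Over the 250 bases before a RefSeq start, on both strands, GGGCGG was found at 7 of the 10 start sites, in 7 of the 8 members, and in 42.6% of all 35116 promoters, which are counted per start site. NR4A1 and KLF5, with 2 start sites each, held it at 1 of them. KLF15 held 6 matches, neighbouring ones included, and KLF2 and KLF4 held 4 each. KLF6 held 2 matches, 1 of them past the end of the shorter run shown. NR4A3 was the member without a match. TGACG was found at 5 of the 10 start sites, in 5 of the 8 members (KLF4, KLF5, KLF13, KLF15 and NR4A3), and in 21.2% of all promoters. NR4A3 held 4 matches, 1 of them in the 30 bases past the end of the run shown. TATAAA was found at 1 of the 10 start sites, in KLF5, against 10.7% of all promoters. The short CACCC box CCACCC was found at 3 of the 10 start sites, in NR4A1 and KLF13, against 31.3%. The longer CCACACCC (2.97% of all promoters) and the CArG box (1.16%) were found at 0 of the 10 start sites. AAAGGTCA (1.05%), the element that NR4A receptors bind as monomers, was also found at 0 of them. Other start sites of the 8 members were not scanned. A missing match, such as that of TGACG or the CArG box in NR4A1, therefore holds only for the start sites scanned. For NR4A1 these were 2, and any start further downstream in the gene was not covered. A match describes the letters in this window and not a bound site, and the number of matches was not set against the levels by any test.

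Among the NR4A receptors, NR4A1 made up most of the signal in the mean over all libraries of the authors' fit. The shares within the vehicle or the levamisole cultures were not measured here. NR4A1 (ENSG00000123358, Nur77), the member best known as an immediate early gene, had a base mean of 69.1, NR4A3 (ENSG00000119508, NOR1) had 12.7 and NR4A2 (ENSG00000153234, Nurr1), known for its part in dopamine neurons, had 2.75. NR4A1 thus held 81.8% of the summed base mean of the 3 genes, NR4A3 15.0% and NR4A2 3.25%. The base mean of NR4A1 was 5.45 times that of NR4A3 and 25.1 times that of NR4A2. Per kilobase of exon these ratios were 4.72 and 14.2. The exon length used here and below joins the exons of all annotated transcripts of a gene. It was 7.295 kb for NR4A1, 6.314 kb for NR4A3 and 4.111 kb for NR4A2. The canonical transcripts have 2485, 5604 and 3472 bases, so the ratios per kilobase depend on this choice. Ratios by canonical length were not computed. NR4A1 lay above the median base mean of all genes (21.8), with 64.9% of genes lower, whereas NR4A3 (44.5% of genes lower) and NR4A2 (29.9%) lay below it.

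NR4A1 lies on chromosome 12 of GRCh38 from 52022832 to 52059507 on the plus strand, and its canonical transcript in GENCODE 44 has 7 exons. NR4A3 lies on chromosome 9 from 99821855 to 99866891 on the plus strand, and NR4A2 on chromosome 2 from 156324437 to 156342348 on the minus strand, each with 8 exons. The last 500 exonic bases of the canonical transcript, where CEL-seq reads mostly fall, had 0% overlap with the exons of any other same-strand gene in each of the 10 members.

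**Figure D1:**
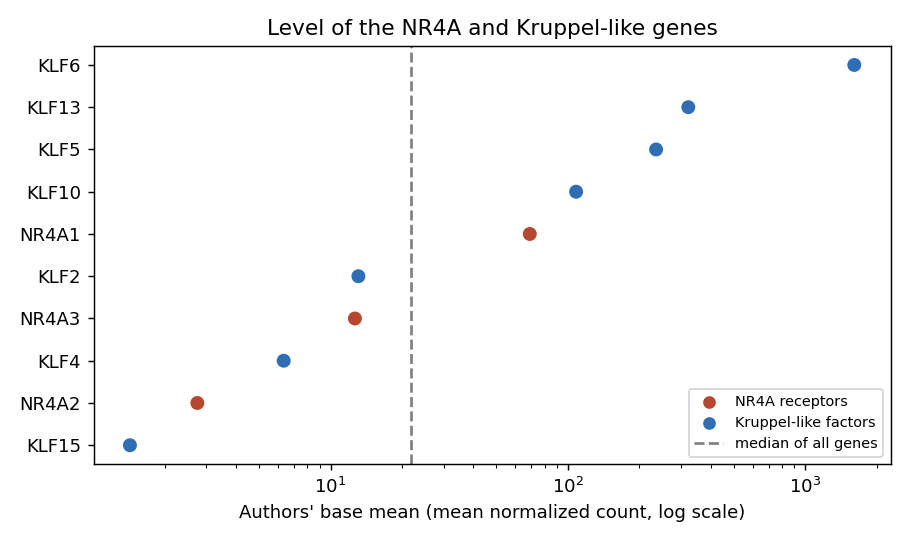
Base mean of each of the 10 genes on a log axis, with NR4A receptors in red, Kruppel-like factors in blue and the median of all genes (21.8) as a dashed line. Each point is 1 mean over all libraries of the authors' fit, so there is no error bar; 5 genes lie above the median and 5 below it.

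Among the Kruppel-like factors, KLF6 stood at the top. KLF6 (ENSG00000067082), a broadly expressed factor induced by injury and growth signals, had a base mean of 1608, with 98.0% of all genes lower. The next member, KLF13 (ENSG00000169926), known for its part in T cells and the heart, had 321, so that KLF6 was 5.00 times as high. KLF5 (ENSG00000102554), a factor of proliferating epithelia, had 235. KLF10 (ENSG00000155090), an early response gene of TGF-beta, had 108. All 4 of these lay above the median of all genes.

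The other 3 Kruppel-like members lay below that median. KLF2 (ENSG00000127528), which endothelial cells induce under flow, had a base mean of 13.1, and KLF4 (ENSG00000136826), a reprogramming factor also made in podocytes, had 6.35. KLF15 (ENSG00000163884), the glucocorticoid-induced factor, had 1.43, the lowest level of the 10 genes, and 22.5% of all genes were lower. KLF6 was 1125 times as high as KLF15 by base mean and 516 times as high per kilobase of exon. KLF5, which shares targets with KLF4, was 37.0 times as high as KLF4, and KLF2 was 2.06 times as high as KLF4.

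On GRCh38, KLF6 lies on chromosome 10 at 3775996 to 3785281 (minus strand), KLF5 on chromosome 13 from 73054976 to 73077541 on the plus strand, and KLF13 on chromosome 15 from 31326835 to 31435665 on the plus strand. KLF2 lies on chromosome 19 from 16324826 to 16328685 on the plus strand, KLF4 on chromosome 9 from 107484852 to 107490482 on the minus strand, and KLF15 on chromosome 3 from 126342635 to 126357408 on the minus strand. KLF10 lies on chromosome 8 from 102648784 to 102655725, also on the minus strand. The canonical transcripts have between 2 exons (KLF13) and 5 exons (KLF4) in this family. All 10 members are protein-coding.

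The 10 members ran from 1.43 to 1608 in base mean, within a table that ran from 0.194 to 780614. A base mean of at least 50 was listed for 5 of the 10 members (KLF6, KLF13, KLF5, KLF10 and NR4A1) and for 39.9% of all genes. A base mean of at least 5 was listed for 8 of the 10 members, all but NR4A2 and KLF15, and for 64.3% of all genes. The median of the members was 41.1, beside 21.8 for all genes. Together the 10 genes took 0.0375% of the summed base means, while 22 mitochondrial genes took 34.8%.

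The order of the members was nearly the same per gene and per kilobase of exon. Reads that fall mostly at the 3′ end do not grow in number with transcript length as those of whole transcripts do, so the base mean per gene and the base mean per kilobase of exon are given side by side. Per kilobase, KLF6 had 262, KLF5 63.9, KLF13 34.1, KLF10 28.3 and NR4A1 9.47. KLF2 followed with 4.65, NR4A3 with 2.01, KLF4 with 1.73, NR4A2 with 0.669 and KLF15 with 0.508. KLF5 and KLF13 exchanged places, and the other 8 members kept theirs. KLF2 and NR4A3 were the closest neighbours by base mean (13.1 and 12.7), and NR4A3 and KLF4 (2.01 and 1.73) were close per kilobase.

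**Figure D2:**
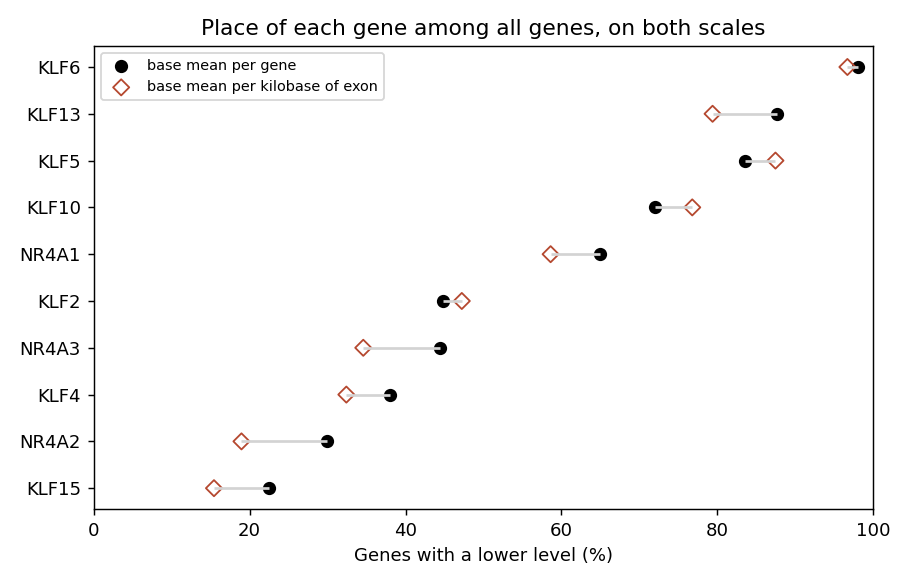
Percentage of genes with a lower level than each member, by base mean per gene (black points) and by base mean per kilobase of exon (open red diamonds). KLF5 moves past KLF13 on the second scale, from 83.5% to 87.5% against 87.6% to 79.4%, and the other members keep their order.

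Set in their whole family, the 7 Kruppel-like members held both the top and most of the bottom of the range. Of 17 Kruppel-like genes looked up, 15 had a row. KLF6 alone held 46.2% of the summed base mean of the 15 genes. KLF13 was second with 9.23%, followed by KLF9 with 9.02% and KLF11 with 8.23%, and KLF5 held 6.75%. KLF9, like KLF15 a known glucocorticoid target, had a base mean of 314, and KLF11 had 287 and KLF3 208. KLF2, KLF4 and KLF15 were at places 12, 13 and 14 of the 15, above only KLF14 (1.22). Per kilobase of exon, KLF6 was again first with 43.4% of the family's sum, KLF5 rose to place 2, KLF13 went to place 5, KLF2 took place 11, and KLF4 and KLF15 stayed at places 13 and 14. A base mean of at least 50 was listed for 4 of the 7 members and for 6 of the 8 other Kruppel-like genes with a row. The share among all genes was 39.9%.

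**Figure D3:**
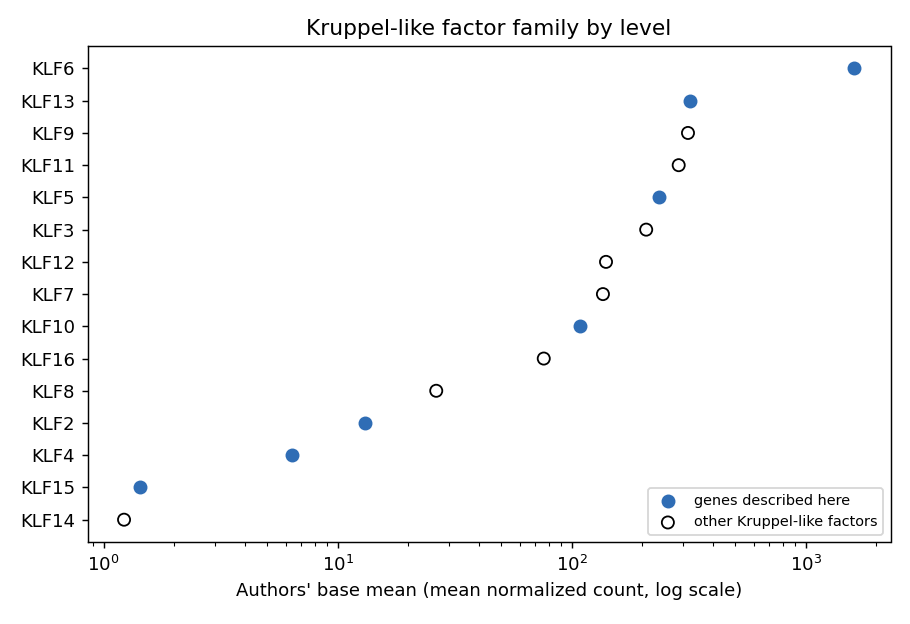
Base mean on a log axis of the 15 Kruppel-like genes with a row, in falling order, with the 7 genes described here as filled points and the 8 others as open circles. KLF6 lies apart at 1608, and KLF2, KLF4 and KLF15 are 3 of the 4 lowest.

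Genes that act with or upstream of these factors were also looked up. Beside the counts below, 64.3% of all genes with a row had a base mean of at least 5, and 39.9% had one of at least 50. SP factors, which compete with Kruppel-like factors for GC-rich sites, were led by SP1 (586), SP2 (478) and SP3 (329). Of the 9 SP factors, 4 had a base mean of at least 5, 2 were below it and 3 had no row. All 7 corepressor genes that Kruppel-like factors recruit had a base mean of at least 50, led by HDAC2 (3328), CTBP1 (1479) and SIN3B (695). Of the 16 genes known to drive NR4A transcription, 15 had a base mean of at least 5 and 1 had no row. MEF2D (307), CREB1 (293) and CRTC3 (281) led them. Of the 15 genes, 9 were above and 6 below NR4A1 in base mean, and 11 were above and 4 below it per kilobase of exon. The counts per kilobase depend on the length used, which for NR4A1 was 7.295 kb of joined exons against 2485 bases in its canonical transcript. Counts by canonical length were not computed. In the MAPK7 (ERK5) route to KLF2 and KLF4, 7 of 7 genes had a base mean of at least 5, with MEF2D, MAP3K2 (188) and MEF2A (187) on top. On both scales 5 of the 7 were above KLF2 and 2, MAP2K5 (12.4) and MEF2C (9.03), were below it.

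Among 19 partners and related orphan receptors of the NR4A genes, 13 had a base mean of at least 5, 1 was below it and 5 had no row. Of all genes with a row, 64.3% had a base mean of at least 5. NR2F2 (884), NR2C1 (292) and NR2C2 (97.1) were the highest. Per kilobase of exon, NR2F2 (137) and NR2C1 (45.3) were above NR4A1 (9.47), and NR2C2 (8.21) was below it. These places also depend on the length used. Among 6 steroid receptor genes, NR3C1, which encodes the glucocorticoid receptor, had a base mean of 1298, NR3C2 had 5.28 and PGR 1.09. Of the 2 Kruppel-like genes named above as glucocorticoid targets, KLF9 was at 314 and KLF15 at 1.43 over the same libraries. Per kilobase of exon they were at 60.4 and 0.508.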

How the data were processed

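RNA of 3 vehicle and 3 levamisole cultures was sequenced. Per the labels and the study's methods, the authors trimmed reads with Trim Galore 0.4.5, mapped them to GRCh38 with STAR 2.7.5a, counted them per gene with HTSeq 0.11.0 on Ensembl 95 and compared groups with DESeq2 1.22.0. The authors deposited 1 table. Its base mean is a signal, deposited as the mean normalized count over all libraries of the authors' fit. Its 5 other numeric columns (log2 fold change, standard error, Wald statistic, p-value, adjusted p-value) are the authors' own comparison and were not used. No values per culture were analysed here, so depth is unknown, no interval was computed for a level and no comparison of the groups was made. The number of libraries was looked for in base means shared by at least 20 genes, a step tested on simulated data. Python 3.11.15 with pandas 2.3.3, NumPy 2.4.6, SciPy 1.17.1 and matplotlib 3.10.9 gave percentages of lower genes, ratios and levels per kilobase. The length was that of the joined exons of all annotated transcripts in GENCODE 44, matched by identifier for 20599 genes. All members were named, with the 3 highest genes of each list of related genes; other genes, among them markers and family members, were chosen after their values were seen. Some marker results are not reported here. The members and lists were chosen with earlier results of these data known. Alternatives were other minimums, the scale per kilobase and sums without mitochondrial genes.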

Additional observations from a re-analysis of the deposited data

How the results depend on the processing

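The median percentage of genes lower than a member was 54.9% among all genes, 50.9% among genes at a base mean of 5 or more (8 members), 44.9% among those at 1 or more, and 52.9% per kilobase. The 5 members with a base mean of at least 50 became 8 at a minimum of 5, 7 at 10 and 4 at 100. They were 5 when all base means were scaled up to a sum without mitochondrial genes. That scaling was too small to change the count, because the highest member under 50 was KLF2 at 13.1. Per kilobase, 2 members changed place. The number of libraries could not be read, since 0 base means were shared by at least 10, 20 or 50 genes. Reads per library of each member were therefore not recovered. No paired analysis was possible because the table used here gives 1 pooled mean per gene. Tests with edgeR or DESeq2, other normalizations and left-out replicates were not run either. Low levels limit NR4A2 and KLF15 most, with base means under 5. The unknown number and conditions of the libraries behind the base means limit all 10 members.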
